A study of Mus musculus with 24 samples.

Results

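Genes of the extracellular matrix and of its integrin receptors were followed over 6 groups of cells sorted from mouse embryoid bodies, which are clumps of differentiating embryonic stem cells. The genes were taken by name: every probe with a single annotated gene whose symbol was that of a collagen chain, a laminin chain, an integrin subunit, a fibulin, a fibrillin, a nidogen, fibronectin (Fn1), perlecan (Hspg2) or Sparc. This gave 56 genes on 78 probes, of 17440 features measured in all. They were 7 fibrillar collagen chains, 7 collagen chains of basement membranes, 10 other collagen chains, 8 laminin chains, Nid1, Nid2 and Hspg2, a set of 5 holding Fn1, Fbln1, Fbln2, Fbn2 and Sparc, 10 alpha and 5 beta integrin subunits, and Itgb3bp. The last shares the integrin prefix but encodes no integrin subunit, and it was counted apart.

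The groups were cells with and without surface Flk1 (Flk1+ and Flk1-), the VEGF receptor encoded by Kdr, after 84 h, 95 h or 8 d of differentiation. Each group had 4 arrays, 24 in all, on which the cells' RNA in Cy5 competed with a common Cy3 reference made from whole mouse pups. The labels name no genotype, cell line, strain or treatment. They number a group's samples 1 to 4 without saying whether each was a culture of its own, so the p-values cover only the spread among these samples, and that spread may be technical. The title of the study names Wnt signalling in the commitment of stem cells to endothelium, so each comparison asks which of these genes differed between the sorts, or changed with time within a sort.

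Collagens are trimers of chains, and a trimer forms only from matching chains. Basement membranes, the thin sheets under epithelia and around vessels, are built from a laminin network and a type IV collagen network that nidogens and perlecan link, whereas fibrillar collagens and fibronectin make up the looser matrix between mesenchymal cells. Integrins are dimers of an alpha and a beta subunit that bind these proteins and connect them to the actin cytoskeleton, and mouse embryos without fibronectin form defective mesoderm and vessels. Parietal endoderm, an extraembryonic layer of the rodent embryo that also forms in embryoid bodies, is known for its large output of basement membrane proteins.

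Promoter sequence was available from RefSeq (build GRCm38.p6) for 39 of the 56 genes. Shown here are the bases from 250 to 51 before the start of 4 genes on which the results below turn: Col4a5 and Col4a6, neighbours on opposite strands whose starts lie 1343 bases apart, and the laminin chains Lama5 and Lamb2, of which the first differed between sorts and the second between times. Capitals mark GC boxes (GGGCGG, read on both strands, the usual Sp1 motif) and CCAAT boxes (CCAAT, both strands), and each line runs 5′ to 3′ on the gene's own strand.
Col4a5: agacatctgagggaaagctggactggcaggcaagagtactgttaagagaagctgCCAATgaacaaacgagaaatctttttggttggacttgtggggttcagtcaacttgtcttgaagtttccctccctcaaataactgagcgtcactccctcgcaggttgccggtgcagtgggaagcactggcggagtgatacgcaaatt
Col4a6: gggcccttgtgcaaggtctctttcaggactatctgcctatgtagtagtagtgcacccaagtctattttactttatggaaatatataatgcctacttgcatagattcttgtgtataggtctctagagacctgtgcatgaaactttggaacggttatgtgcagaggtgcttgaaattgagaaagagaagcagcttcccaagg
Lama5: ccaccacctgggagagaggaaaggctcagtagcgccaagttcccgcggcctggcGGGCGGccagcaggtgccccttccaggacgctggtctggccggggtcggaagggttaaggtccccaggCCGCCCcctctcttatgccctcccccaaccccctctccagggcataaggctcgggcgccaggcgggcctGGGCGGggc
Lamb2: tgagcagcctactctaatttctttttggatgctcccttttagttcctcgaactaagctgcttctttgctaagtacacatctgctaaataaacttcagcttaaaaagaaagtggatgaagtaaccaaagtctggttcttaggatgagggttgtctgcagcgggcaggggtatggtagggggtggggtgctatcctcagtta
They lie at chrX:141475169-141475368 (plus strand), chrX:141474127-141474326 (minus), chr2:180225910-180226109 (minus) and chr9:108479612-108479811 (plus). The Lama5 stretch held 3 GC boxes and 72.0% G and C, the Col4a5 stretch 1 CCAAT box and 49.5%, and the other two neither motif, with 42.5% in Col4a6 and 44.5% in Lamb2. Of all 32851 RefSeq windows at this distance, 24.64% held a GC box and 28.43% a CCAAT box. Among the 44 windows of the genes described here these shares were 45.45% and 18.18%. The 2 motifs do not overlap in their letters.

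Values are log2 ratios of sample over reference, each array set to a median of 0, with probes of 1 gene averaged. Since every probe has its own reference level, values are compared between groups for 1 gene and never between genes. A gene was called at an adjusted p under 0.05 in limma's fit over all 24 arrays, adjusted by Benjamini-Hochberg over the 17440 features. Errors are SE after a difference and SD of 4 arrays after a group mean. The ratio of Kdr itself in Flk1+ cells exceeded that in Flk1- cells by 1.91 at 84 h, 2.93 at 95 h and 1.89 at 8 d, with no overlap of the arrays at any time. Arrays of a group were most alike at 8 d, where their correlations over all features ran from 0.925 to 0.958, and least alike in Flk1+ cells at 84 h, from 0.59 to 0.93. There arrays 2 and 4 stood apart: their Kdr ratios were 0.04 and 0.67, against 1.80 and 1.43 on arrays 1 and 3. Array 4 of Flk1- cells at 84 h also departed from its group, and the 84 h results are given with and without these 3 arrays. In sorted bulk samples a lower ratio can come from fewer cells of a type or from less RNA per cell, and these cannot be told apart.

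**Figure D1:**
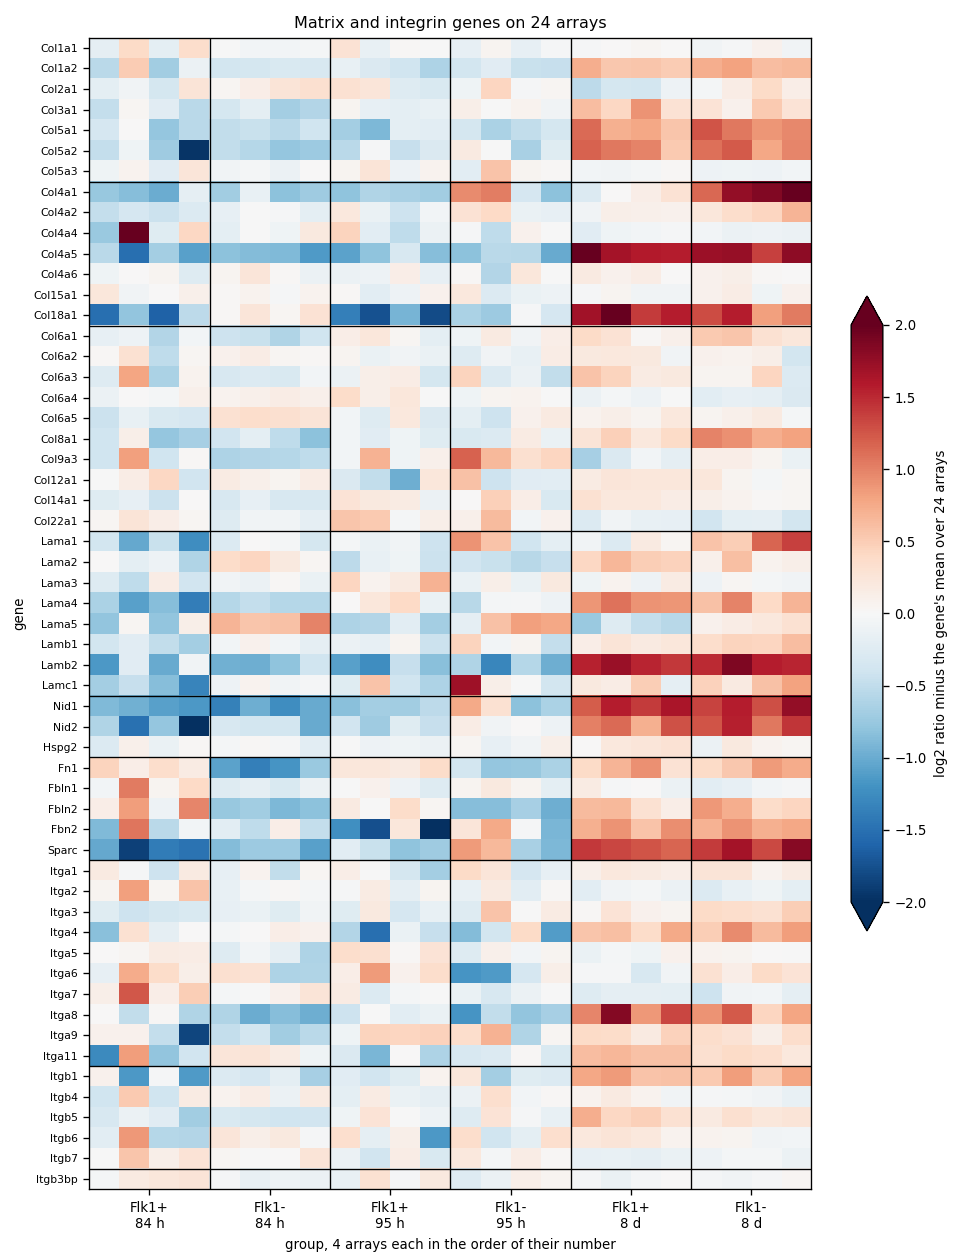
Heat map of the 56 genes (vertical axis, lines divide the roles) on the 24 arrays (horizontal axis, 4 per group in the order of their number). Colour is the log2 ratio minus the gene's mean over all arrays, and colours beyond 2 in either direction are drawn as 2. The block of red at 8 d holds Col4a5, Col18a1, Lamb2, Nid1, Nid2 and Sparc in both sorts, while Fn1 and Fbln2 are blue in Flk1- cells at 84 h and 95 h.

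Between 95 h and 8 d, 20 of the 56 genes rose and 2 fell in Flk1+ cells, and 20 rose and 1 fell in Flk1- cells. Of all features 22.1% were called in Flk1+ cells, 12.8% as rises and 9.31% as falls, and 17.7% in Flk1- cells, 9.88% as rises and 7.78% as falls. The median difference of the 56 genes was 0.27 in Flk1+ and 0.22 in Flk1- cells, beside -0.01 and -0.03 over all features. The 4 arrays at 8 d did not overlap the 4 at 95 h for 26 genes in Flk1+ cells and 25 in Flk1- cells, where the background was 34.6% and 27.8% of features. The 8 largest rises in Flk1+ cells were those of Col18a1, Col4a5, Lamb2, Nid1, Fbn2, Sparc, Nid2 and Itga8. In both sorts 15 genes rose, which is 75% of the 20 in each. Of all features, 1303 rose in both, or 58.2% of those that rose in Flk1+ and 75.6% of those that rose in Flk1- cells. Samples of the same number in the 2 sorts deviated together at both times, so the 2 comparisons share that variation.

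Among the basement membrane collagens, Col4a5, a type IV chain found in mature basement membranes such as that of the kidney glomerulus, moved most evenly. In Flk1+ cells its ratios were -1.12, -0.85, -0.36 and -0.90 at 95 h and 1.99, 1.61, 1.54 and 1.52 at 8 d. In Flk1- cells they were -0.87, -0.58, -0.60 and -1.05 at 95 h and 1.66, 1.70, 1.31 and 1.75 at 8 d. All 8 arrays at 8 d lay above all 8 at 95 h, and the rise was 2.47 ± 0.19 in Flk1+ cells (adjusted p = 2.37e-09) and 2.38 ± 0.19 in Flk1- cells (adjusted p = 5.98e-09). Col4a6, the chain whose gene starts next to Col4a5 and whose product assembles with the Col4a5 chain, had group means between -0.58 and -0.38 in all 6 groups. It differed by 0.17 ± 0.13 between 95 h and 8 d in Flk1+ cells (adjusted p = 0.382) and by 0.15 ± 0.13 in Flk1- cells (adjusted p = 0.478). Its arrays overlapped in both. Neither promoter stretch held a GC box, and the one of Col4a5 held the CCAAT box shown above.

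Col18a1, the chain whose tail is cleaved to endostatin, rose in both sorts but from different levels. In Flk1+ cells it went from -1.62, -2.00, -1.18 and -2.04 at 95 h to 1.43, 1.73, 1.15 and 1.31 at 8 d. In Flk1- cells it went from -0.89, -0.97, -0.27 and -0.60 to 1.05, 1.32, 0.57 and 0.79. Neither pair of groups overlapped. The rise was 3.11 ± 0.23 in Flk1+ cells (adjusted p = 2.40e-09), the largest of the 56 genes in either sort, and 1.62 ± 0.23 in Flk1- cells (adjusted p = 3.24e-05). Its 2 probes gave 3.10 and 3.13 in Flk1+ cells.

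Col4a1, with Col4a2 the common type IV collagen chain of nearly all basement membranes, differed between the sorts at 8 d. In Flk1- cells its ratios at 8 d were 0.06, 0.66, 0.76 and 1.08, and in Flk1+ cells they were -1.36, -1.08, -0.97 and -0.81. The sorts did not overlap, and Flk1+ cells were lower by 1.70 ± 0.31 (difference -1.70, adjusted p = 0.0106). In the fit over all 24 arrays this was the only 1 of the 56 genes called between the sorts at 8 d. The background there was 0.373% of features, 0.224% for lower ones. That fit shares 1 spread among the 6 groups, although the arrays were most alike at 8 d. With only the arrays compared 9 genes were called, beside 5.46% of features, and with array weights 17, beside 13.4%. The single call therefore does not show that few genes differed at 8 d. The call of Col4a1 was lost without Flk1+ array 1 (adjusted p = 0.0511) or without Flk1- array 4 (adjusted p = 0.0606). Within Flk1- cells Col4a1 rose by 1.53 ± 0.31 from 95 h to 8 d (adjusted p = 0.00116), and in Flk1+ cells the difference was 0.72 ± 0.31 (adjusted p = 0.10). Those comparisons use some of the same arrays as the comparison of sorts at 8 d, and the change of the sort difference from 95 h to 8 d was not called (-0.81 ± 0.44, adjusted p = 0.747). Col4a2 starts 21 bases from Col4a1 on the opposite strand of chromosome 8. Its average differed between the sorts at 8 d by -0.37 ± 0.14 (adjusted p = 0.591) with no overlap, and its 2 probes disagreed, at -0.01 and -0.73. Col4a4 was not called in any comparison, and neither was Col15a1.

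**Figure D2:**
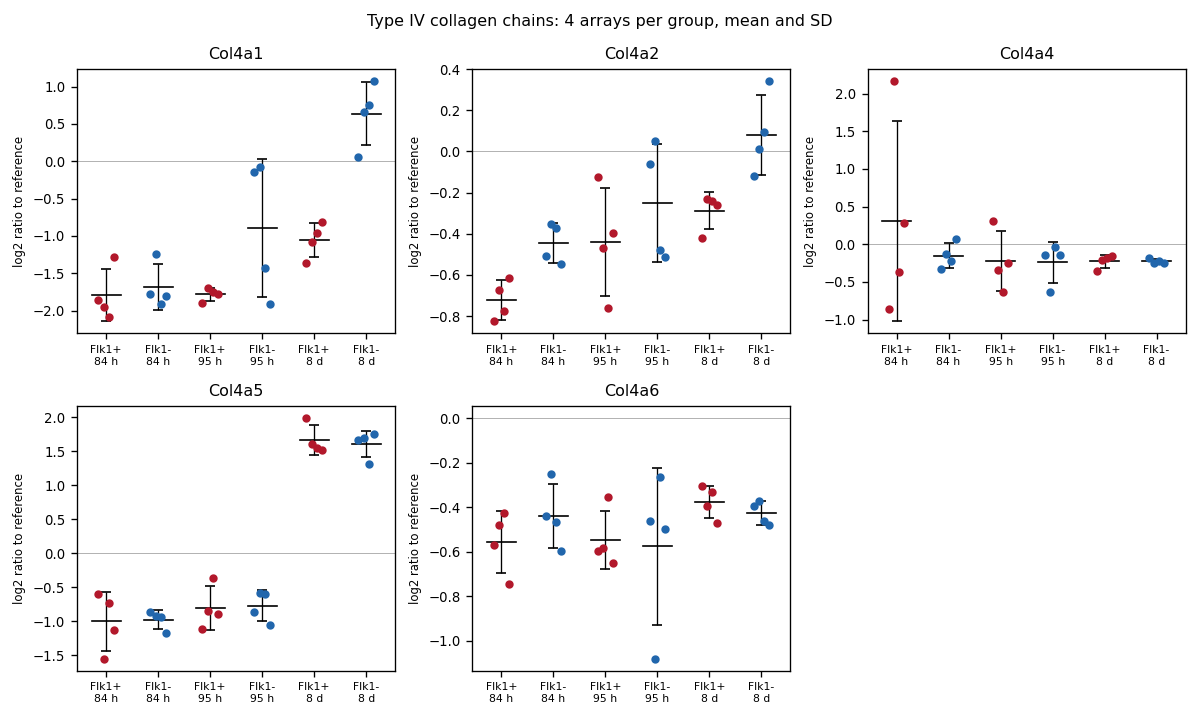
Log2 ratios of the 5 measured type IV collagen chains (vertical axis, with its own scale in each panel) in the 6 groups. Points are arrays, black lines the mean and bars the SD of 4 arrays. Col4a5 lies between 1.31 and 1.99 on the arrays of 8 d and below 0 on all others, Col4a6 is below 0 on every array, and Col4a1 at 8 d is above 0 in Flk1- cells alone.

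Some endoderm markers also had higher ratios in Flk1- cells at 8 d. Of 12 measured markers of parietal and visceral endoderm, 3 were called, all lower in Flk1+ cells: Ttr by -2.00, Foxa2 by -1.67 and Apoa1 by -0.53. The mean of the 12 markers was -0.33, -0.26, -0.00 and 0.13 on the 4 arrays of Flk1- cells and between -0.86 and -0.77 on those of Flk1+ cells, so the sorts did not overlap. Array 1 was the lowest and array 4 the highest of the Flk1- arrays both for this mean and for Col4a1. Ttr was -1.07, -1.24, -1.13 and -1.52 there, lowest on array 4. Of 8 endothelial markers, Cdh5 (1.84) and Eng (1.39) were the calls at 8 d, both higher in Flk1+ cells. The part of these cells in the Col4a1 difference was not tested.

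Among the laminin chains, Lamb2, a beta chain of vessel, kidney and synaptic basement membranes, rose most. Its ratios in Flk1+ cells were -2.36, -2.51, -1.74 and -2.11 at 95 h and 0.26, 0.45, 0.25 and 0.13 at 8 d. In Flk1- cells they were -1.88, -2.58, -1.84 and -2.25 at 95 h and 0.21, 0.59, 0.29 and 0.25 at 8 d. No array overlapped, and the rise was 2.45 ± 0.22 in Flk1+ cells (adjusted p = 4.14e-08) and 2.47 ± 0.22 in Flk1- cells (adjusted p = 4.15e-08). Between the sorts Lamb2 was called at none of the 3 times. Lama4, the alpha chain of endothelial laminin, and Lama2, that of muscle laminin, rose as well. The rise was 0.81 ± 0.16 for Lama4 and 0.81 ± 0.14 for Lama2 in Flk1+ cells, and 0.85 ± 0.16 and 0.68 ± 0.14 in Flk1- cells. Lama4 had already risen from 84 h to 95 h in Flk1+ cells, by 1.12 ± 0.16 (adjusted p = 4.15e-04), from -2.05, -2.50, -2.27 and -2.80 to -1.40, -1.19, -1.01 and -1.55. In all, 3 of the 8 laminin chains rose from 95 h to 8 d in Flk1+ cells and 4 in Flk1- cells, where Lamb1 (0.47 ± 0.14) was the fourth. Rises over all features were 12.8% and 9.88%. The 4 probes of Lamb1 did not move together, with rises from -0.06 to 1.17 in Flk1- cells, so its value is uncertain, and the call was lost without any of 4 arrays (adjusted p up to 0.114).

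Nid1 and Nid2, the linkers of the laminin and type IV collagen networks, rose in both sorts, and Hspg2 was called in no comparison. That value of Hspg2 averages 2 probes that disagreed. In Flk1+ cells they were called in opposite directions from 84 h to 95 h, at -0.59 and 0.57. From 95 h to 8 d they gave -0.06 and 0.59 there, the second a call. The average rise of 0.27 was called without the 3 arrays of 84 h (adjusted p = 0.0194). In Flk1+ cells Nid1 went from -2.31, -2.15, -2.18 and -1.99 at 95 h to -0.26, 0.09, -0.08 and 0.15 at 8 d, a rise of 2.13 ± 0.23 (adjusted p = 5.99e-07) without overlap. In Flk1- cells the rise was 1.59 ± 0.23 (adjusted p = 3.53e-05), also without overlap. Nid2 rose by 1.48 ± 0.28 and 1.33 ± 0.28. Sparc, a secreted collagen-binding protein abundant in basement membranes of the early embryo, went in Flk1+ cells from -1.94, -2.16, -2.52 and -2.43 to -0.30, -0.38, -0.46 and -0.56. Its rise was 1.84 ± 0.28 in Flk1+ cells (adjusted p = 5.16e-05) and 1.56 ± 0.28 in Flk1- cells (adjusted p = 3.88e-04), with no overlap in either. Fbn2, a fibrillin of embryonic microfibrils, rose by 1.96 ± 0.41 in Flk1+ cells, from -1.63, -2.17, -0.19 and -2.40 to 0.29, 0.48, 0.17 and 0.52. Its array 3 at 95 h was far above the others, but the groups did not overlap.

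**Figure D3:**
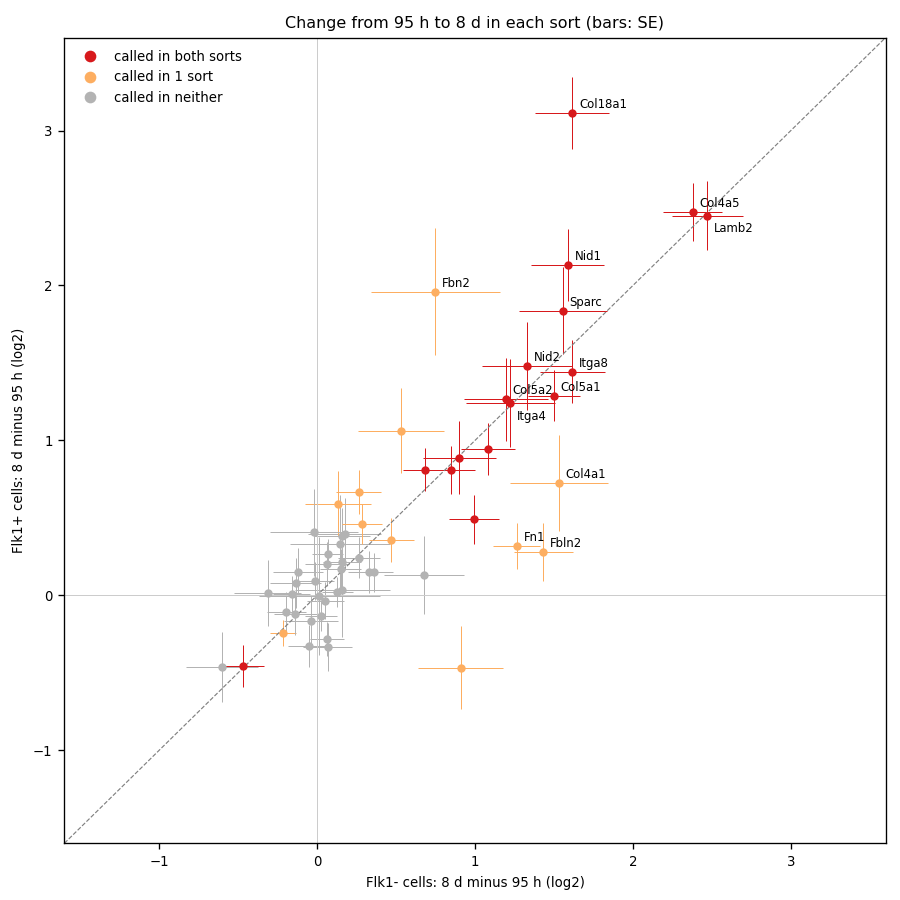
Difference between 8 d and 95 h (log2) of the 56 genes in Flk1- cells (horizontal axis) and Flk1+ cells (vertical axis). Bars are SE, the dashed line marks equal change, and colour gives the number of sorts in which a gene was called. Lamb2 and Col4a5 lie on the line near 2.4, Col18a1 above it at 3.11 and 1.62, and Fn1, Fbln2 and Col4a1 below it.

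Of the 7 fibrillar collagen chains, 4 rose in Flk1+ cells and 3 in Flk1- cells from 95 h to 8 d, with no fall called. The shares over all features were 12.8% and 9.88% for rises and 9.31% and 7.78% for falls. Col5a1 and Col5a2, chains of the type V collagen that nucleates fibrils, rose in both sorts: Col5a1 by 1.29 ± 0.16 and 1.50 ± 0.16 and Col5a2 by 1.26 ± 0.27 and 1.20 ± 0.27 in Flk1+ and Flk1- cells. On the arrays of Flk1- cells, Col5a1 went from -1.11, -1.40, -1.26 and -1.12 to 0.50, 0.30, 0.12 and 0.20. Col1a2, a chain of type I collagen, rose by 0.94 ± 0.17 and 1.08 ± 0.17, and Col3a1 by 0.67 ± 0.14 in Flk1+ cells. The 2 probes of Col3a1 differed there, at 0.23 and 1.11, and only 1 of them was called. Col1a1, the partner chain of Col1a2, had group means from -0.12 to 0.04 in the 6 groups on its single probe and was called in no comparison. Col2a1, the cartilage collagen, was also called in none with group means between -3.11 and -2.59. Of the 10 other collagen chains, Col8a1 rose in both sorts, by 0.49 ± 0.16 and 1.00 ± 0.16, and Col12a1 in Flk1+ cells by 0.59 ± 0.21. In Flk1+ cells the Col8a1 difference was 0.04 under quantile normalization (adjusted p = 0.866), and the call was lost without any of 4 of the 8 arrays (adjusted p up to 0.0895). The Col12a1 arrays of the 2 times overlapped, and its call was lost without any of 7 arrays (adjusted p up to 0.181), without centring (adjusted p = 0.0601), and with only the arrays compared (adjusted p = 0.0655). Col22a1, a collagen of tissue junctions, fell in both, with differences of -0.46 ± 0.14 and -0.47 ± 0.14. In Flk1+ cells it went from 0.38, 0.35, -0.23 and -0.06 to -0.46, -0.25, -0.34 and -0.34, without overlap by a narrow margin. Both calls of Col22a1 were lost without any of 3 arrays, with adjusted p up to 0.0764 and 0.0767. Col6a4 fell in Flk1+ cells from -0.03, -0.28, -0.16 and -0.40 to -0.50, -0.43, -0.49 and -0.40 (difference -0.24 ± 0.08), where the groups met at array 4. This call was lost without any of 5 of the 8 arrays (adjusted p up to 0.131) and with the probe of largest SD (adjusted p = 0.222).

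Among the integrins, 5 of 15 subunits rose in Flk1+ cells and 4 in Flk1- cells from 95 h to 8 d, with no fall called. Of all features 12.8% rose and 9.31% fell in Flk1+ cells, and 9.88% rose and 7.78% fell in Flk1- cells. Itga8, an alpha subunit that binds nephronectin and fibronectin, rose most. Its ratios in Flk1+ cells were -0.48, -0.08, -0.27 and -0.21 at 95 h and 0.91, 1.76, 0.79 and 1.27 at 8 d, and in Flk1- cells -1.24, -0.56, -0.85 and -0.73 and then 0.84, 1.16, 0.36 and 0.72. The times did not overlap in either sort, with rises of 1.44 ± 0.20 (adjusted p = 2.12e-05) and 1.62 ± 0.20 (adjusted p = 5.85e-06). Its beta partner Itgb1, the subunit shared by most matrix-binding integrins, rose by 0.89 ± 0.23 and 0.90 ± 0.23. Itga4, the alpha subunit that binds fibronectin and Vcam1, rose by 1.24 ± 0.28 and 1.22 ± 0.28. Itga11, a collagen receptor of fibroblasts, rose in Flk1+ cells by 1.06 ± 0.27, and Itgb5 there by 0.46 ± 0.13. Quantile normalization ended the call of Itga11 at 0.64 (adjusted p = 0.0745), and leaving out Flk1+ array 1 of 8 d that of Itgb5 (adjusted p = 0.0551). Itga6, a laminin receptor subunit, rose in Flk1- cells by 0.91 ± 0.27 (adjusted p = 0.0208), from -1.56, -1.50, -0.72 and -0.26 to -0.07, -0.24, 0.01 and -0.11. Arrays 1 and 2 at 95 h were the low ones, and the call was lost without either of them or without array 3 of 8 d (adjusted p up to 0.0800). With array weights the Itga6 difference was 0.42 (adjusted p = 0.167).

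Most calls among the genes that process or accompany the matrix were rises too. The counts stand beside 12.8% rises and 9.31% falls of all features in Flk1+ cells, and 9.88% and 7.78% in Flk1- cells. Of 18 measured genes of collagen processing and crosslinking, 11 rose and 2 fell in Flk1+ cells from 95 h to 8 d, and 13 rose and 1 fell in Flk1- cells. Pcolce, the enhancer of procollagen C-proteinase, rose by 3.16 ± 0.16 and 2.98 ± 0.16, and Serpinh1, the collagen chaperone of the endoplasmic reticulum, by 1.37 ± 0.23 and 1.47 ± 0.23. Pcolce2, a relative of Pcolce, fell by 2.33 (difference -2.33 ± 0.13) and 1.61 (difference -1.61 ± 0.13). Of 17 matrix proteases and inhibitors, 9 rose in Flk1+ and 8 in Flk1- cells as the only calls, among them Mmp14, the membrane-bound collagenase, by 1.55 ± 0.22 and 1.75 ± 0.22. Of 26 other matrix proteins 14 rose in Flk1+ cells and 13 in Flk1- cells, where 1 fell. Of 12 other matrix receptors 8 rose and 1 fell in Flk1+ cells and 7 rose in Flk1- cells, and of 23 genes of the integrin adhesion complex 9 rose and 1 fell, and 7 rose and 1 fell. Fermt3, the kindlin of blood and endothelial cells, which activates integrins, rose by 3.15 ± 0.21 in Flk1+ and 1.39 ± 0.21 in Flk1- cells, and at 8 d it was higher in Flk1+ cells by 1.76 ± 0.21 (adjusted p = 1.55e-04). Markers of smooth muscle and fibroblasts moved with these genes: 6 of 9 rose in each sort and 1, Cnn1, fell in Flk1- cells. Postn, which is also among the matrix proteins above, rose by 5.87 and 5.54 and Acta2 by 3.69 and 3.58. Their mean lay between -2.41 and -2.13 on the Flk1+ arrays at 95 h and between -0.45 and -0.35 at 8 d, and for Flk1- cells between -2.30 and -2.20 and between -0.55 and -0.27. Their part in the rises was not tested.

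At 84 h the sorts differed for 10 of the 56 genes, 5 higher and 5 lower in Flk1+ cells, where 13.5% of all features were called, 5.3% higher and 8.18% lower. For 17 genes no Flk1+ array fell within the range of the Flk1- arrays, beside 17.4% of features. Fn1, fibronectin, was the clearest. Its ratios in Flk1+ cells were 0.36, 0.05, 0.27 and 0.08, and in Flk1- cells -1.16, -1.46, -1.26 and -0.82. All Flk1+ arrays lay above 0 and all Flk1- arrays below it, a difference of 1.36 ± 0.15 (adjusted p = 2.92e-06). Its 3 probes gave 1.61, 1.71 and 0.77, and the last alone was not called (adjusted p = 0.0944). Fbln2, a fibulin that binds fibronectin and laminin, was -0.46, 0.24, -0.70 and 0.39 in Flk1+ cells and -1.35, -1.29, -1.49 and -1.41 in Flk1- cells. The sorts did not overlap, but arrays 2 and 4 of Flk1+ cells were the high ones. The difference was 1.25 ± 0.19 (adjusted p = 1.60e-04). Leaving out the 3 arrays brought it to 0.80 (adjusted p = 0.00693). For Fn1 it was 1.61 without them (adjusted p = 9.17e-06).

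Col18a1 and Lama5, the alpha chain of laminin in epithelial and vessel basement membranes, were higher in Flk1- cells at 84 h. Col18a1 was -1.76, -1.03, -1.88 and -0.78 in Flk1+ cells and -0.23, -0.00, -0.21 and 0.04 in Flk1- cells, a difference of -1.26 ± 0.23 (adjusted p = 0.00151). Lama5 was -0.98, -0.14, -0.97 and -0.08 in Flk1+ cells and 0.50, 0.37, 0.40 and 0.80 in Flk1- cells, a difference of -1.06 ± 0.21 (adjusted p = 0.00283). Neither gene's sorts overlapped, and arrays 2 and 4 of Flk1+ cells were closest to the Flk1- arrays. Without the 3 arrays Col18a1 differed by -1.67 and Lama5 by -1.40, with adjusted p of 3.91e-04 and 4.36e-04. Col6a5, a type VI collagen chain, was -1.57, -1.27, -1.45 and -1.47 in Flk1+ cells and -0.82, -0.79, -0.81 and -0.88 in Flk1- cells. Its groups were far apart for their small spread, with a difference of -0.62 ± 0.12 (adjusted p = 0.00213), and under quantile normalization the call ended at -0.22 (adjusted p = 0.237).

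The other 5 calls at 84 h were lost without the 3 arrays. Fbln1 (0.07, 1.18, 0.19 and 0.53 in Flk1+ against -0.13, -0.05, -0.17 and 0.02 in Flk1- cells) differed by 0.58 ± 0.16, and by 0.25 without them (adjusted p = 0.257). Itga2, a collagen receptor subunit (0.07, 0.84, 0.05 and 0.60 against -0.13, -0.02, 0.04 and -0.03), differed by 0.42 ± 0.14. Itga5, the alpha subunit of the main fibronectin receptor, was 0.26, 0.29, 0.41 and 0.39 against -0.00, 0.19, 0.08 and -0.37, a difference of 0.37 ± 0.11 (adjusted p = 0.0339). Arrays 2 and 4 were the high ones for Fbln1 and Itga2 but not for Itga5. Lama2 (-2.13, -2.34, -2.25 and -2.75 against -1.78, -1.72, -1.95 and -2.11) differed by -0.48 ± 0.14. Nid2 (0.00, -0.88, -0.17 and -2.02 against 0.28, 0.24, 0.24 and -0.40) differed by -0.86 ± 0.28 (adjusted p = 0.0498), its groups overlapped, and the difference was -0.34 without the 3 arrays (adjusted p = 0.250). Leaving them out gave 6 calls, 2 higher and 4 lower, of which 5 were shared with the 10, where 6.74% of features were called. The sixth was Itga11, at -1.25 (adjusted p = 3.80e-04). Its ratios in Flk1+ cells were -2.83, -0.73, -2.35 and -1.94, with array 2 above every Flk1- array.

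Epithelial and pluripotency markers moved with the sort at 84 h: 7 of 8 were lower in Flk1+ cells and 1, Krt8, higher, with Sox2 at -3.56, Cdh1 at -2.54 and Epcam at -2.17. Their mean was 0.17, -0.56, 0.26 and -0.54 on the Flk1+ arrays and 1.46, 1.43, 1.42 and 0.83 on the Flk1- arrays. All 5 measured markers of early and lateral mesoderm, Snai1 and Hand1 among them, were higher in Flk1+ cells, with a mean of 1.63, 2.29, 1.72 and 2.23 against 0.79, 0.36, 0.49 and 1.03. Of the 12 endoderm markers 3 were higher and 3 lower in Flk1+ cells at 84 h. The higher ones were Gata4, Gata6 and Apoa1. Their group means were 1.35, 0.89 and -3.64 in Flk1+ cells against 0.54, 0.39 and -4.00 in Flk1- cells. Among the lower were Foxa2 (-1.95) and Sox17 (-0.80). At 95 h 3 of the endoderm markers were lower, beside 1.37% of features. The part of these cell types in the differences of Fn1, Fbln2, Col18a1 and Lama5 was not tested. Around the matrix genes, Mmp14 was higher in Flk1+ cells at 84 h by 1.32 ± 0.22 (adjusted p = 5.92e-04). Of the 18 genes of collagen processing and crosslinking, 2 were higher in Flk1+ cells, Pcolce2 (0.59 ± 0.13) and P3h2 (0.58 ± 0.09), and 3 lower, P4hb (-0.96 ± 0.25), Plod2 (-0.91 ± 0.21) and P4ha1 (-0.89 ± 0.28). Beside these counts at 84 h, 5.3% of all features were higher and 8.18% lower in Flk1+ cells.

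**Figure D4:**
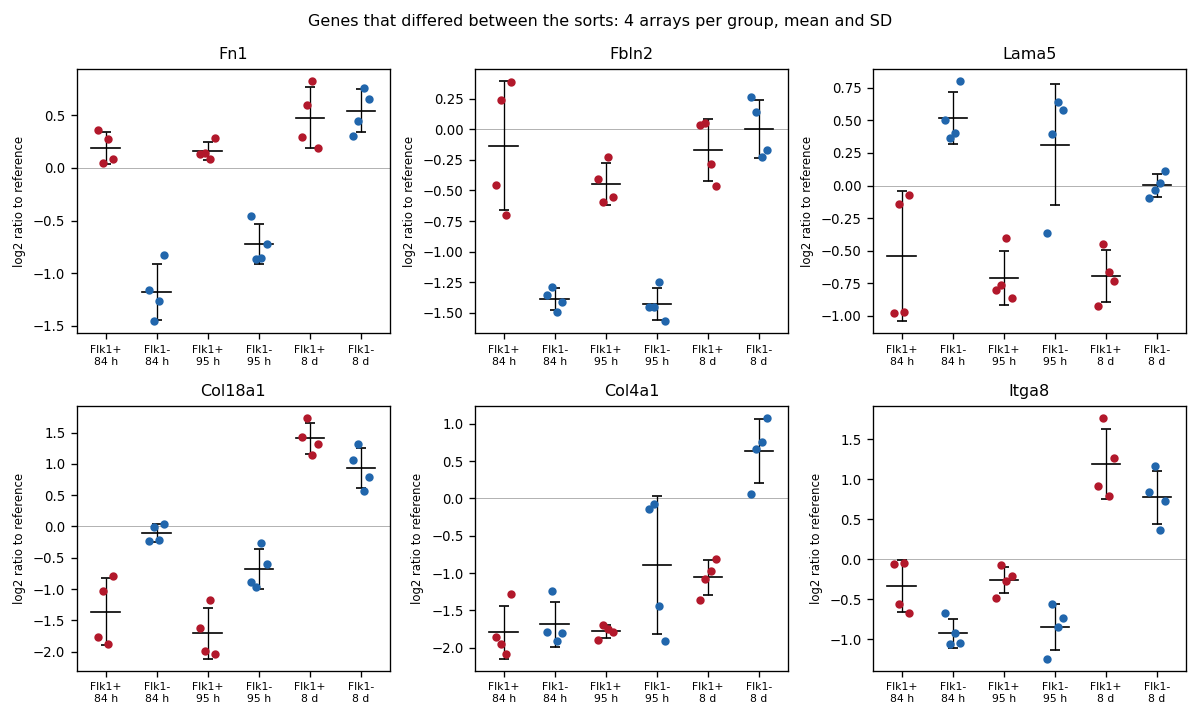
Log2 ratios of 6 genes (vertical axis, with its own scale in each panel) in the 6 groups. Red points are Flk1+ arrays and blue points Flk1- arrays, with black lines for the mean and bars for the SD of 4 arrays. Fn1 and Fbln2 are lower in Flk1- cells at 84 h and 95 h and overlap at 8 d, Lama5 is lower in Flk1+ cells at all 3 times, and Col4a1 separates the sorts at 8 d.

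At 95 h, 4 of the 56 genes were called, Fn1 and Fbln2 higher and Col18a1 and Lama5 lower in Flk1+ cells, where 2.03% of features were called, 0.659% higher and 1.37% lower, and 6 genes did not overlap, beside 4.81% of features. The arrays were other samples than those of 84 h. Fn1 was 0.13, 0.14, 0.09 and 0.28 in Flk1+ and -0.45, -0.86, -0.85 and -0.72 in Flk1- cells, a difference of 0.88 ± 0.15 (adjusted p = 0.0011). Fbln2 was -0.41, -0.60, -0.22 and -0.55 against -1.45, -1.45, -1.25 and -1.57, a difference of 0.98 ± 0.19 (adjusted p = 0.00399). Neither overlapped, and the spread within each sort was small. Col18a1 differed by -1.03 ± 0.23 (adjusted p = 0.0193), a call lost without Flk1+ array 2 (adjusted p = 0.0672) or 4 (adjusted p = 0.0766), or without Flk1- array 3 (adjusted p = 0.0765). Weighting the arrays by quality also ended it (adjusted p = 0.0533). Lama5 differed by -1.02 ± 0.21 (adjusted p = 0.00865), from -0.80, -0.76, -0.40 and -0.87 to -0.37, 0.40, 0.64 and 0.58, so that array 1 of Flk1- cells lay next to the Flk1+ arrays. In a fit of only the 8 arrays compared, the calls of Lama5 were lost at 84 h (adjusted p = 0.0667) and at 95 h (adjusted p = 0.107), and that of Col18a1 at 95 h (adjusted p = 0.107). With the Fn1 probe of largest SD alone, Fn1 was not called at 95 h (1.05, adjusted p = 0.101). Its 3 probes gave differences from 0.70 to 1.05, and only 1 of them was called. From 84 h to 95 h in Flk1+ cells they ran from -0.83 to 0.99, with 1 called higher and 1 lower. Samples of the same number in the 2 sorts deviated together at 95 h and at 8 d, and with the number as a block Itga8 was also called at 95 h, at 0.59 (adjusted p = 0.00827, against 0.199 without the block). The change of the sort difference from 84 h to 95 h was called for 0 of the 56 genes in limma's fit, where 0.00573% of features were called, and 11 of the 56 had an unadjusted p under 0.05, as did 15.4% of features.

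By 8 d the differences of Fn1 and Fbln2 were no longer called. Fn1 was 0.29, 0.60, 0.83 and 0.19 in Flk1+ and 0.30, 0.45, 0.76 and 0.66 in Flk1- cells, and Fbln2 was 0.03, 0.05, -0.29 and -0.47 against 0.27, 0.14, -0.23 and -0.17. Both overlapped between the sorts. The ratios of Flk1- cells had risen, Fn1 by 1.26 ± 0.15 (adjusted p = 1.96e-06) and Fbln2 by 1.43 ± 0.19 (adjusted p = 9.18e-06), whereas in Flk1+ cells the differences were 0.32 ± 0.15 (adjusted p = 0.134) and 0.28 ± 0.19 (adjusted p = 0.319). The change of the sort difference from 95 h to 8 d was itself called for 2 genes, where 0.533% of features were, 0.35% upward and 0.183% downward: Fn1 by -0.95 ± 0.21 (adjusted p = 0.0380) and Col18a1 by 1.50 ± 0.33 (adjusted p = 0.0385). Each call was lost on leaving out any of 12 of the 16 arrays, with adjusted p up to 0.110 for Fn1 and 0.113 for Col18a1. For Fbln2 the change was -1.16 ± 0.27 (adjusted p = 0.0501), and with the block it was called (adjusted p = 0.0161). Array weights (adjusted p = 0.0152), quantile normalization (adjusted p = 0.0201) and a fit of only the arrays compared (adjusted p = 0.0106) also called it. So did the filter on values near 0 (adjusted p = 0.0397), values without centring (adjusted p = 0.0480) and leaving out the 3 arrays of 84 h (adjusted p = 0.00272). Leaving out a single array did not call it in any case. Lama5 stayed apart without a call at 8 d, at -0.93, -0.45, -0.67 and -0.73 against -0.09, -0.03, 0.02 and 0.12, a difference of -0.69 ± 0.21 (adjusted p = 0.319). Such separation was common at 8 d: 14 of the 56 genes did not overlap between the sorts, beside 15.9% of features. Lama5 was called there in a fit of only the 8 arrays compared (adjusted p = 0.0099) and under quantile normalization (-0.98, adjusted p = 0.0096). Array weights called it too (adjusted p = 2.89e-05), but the block did not. Of all features, 5.46%, 1.25% and 13.4% were called with only the arrays compared, quantile normalization and array weights. With the block, Col8a1 was a second call at 8 d, at -0.52 (adjusted p = 0.0464), from -1.43, -1.20, -1.47 and -1.30 in Flk1+ to -0.70, -0.77, -0.95 and -0.88 in Flk1- cells. Quantile normalization (adjusted p = 0.0241) and a fit of only the arrays compared (adjusted p = 0.0114) also called Col8a1. So did array weights (adjusted p = 1.32e-04) and leaving out the 3 arrays of 84 h (adjusted p = 0.0257).

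From 84 h to 95 h few of the genes changed. In Flk1+ cells 5 rose and 2 fell, where 19.8% of features were called, 11.2% as rises and 8.62% as falls, and 4 genes did not overlap, beside 13.2%. Besides Lama4, the risers were Nid2 (0.92 ± 0.28), Sparc (0.90 ± 0.28), Itga9 (0.85 ± 0.30) and Lama3 (0.59 ± 0.14), and Itga7 (-0.53 ± 0.17) and Itgb7 (-0.40 ± 0.12) fell. Itga9 went from 0.28, 0.29, -0.28 and -1.64 to 0.12, 0.65, 0.63 and 0.66, and its low value was array 4 of 84 h. Itga7 went from 0.02, 1.14, 0.04 and 0.39 to 0.06, -0.36, -0.14 and -0.11, and Itgb7 from -0.09, 0.48, 0.03 and 0.19 to -0.20, -0.47, 0.06 and -0.39. Both fell chiefly from high values on arrays 2 and 4 of 84 h, and their groups overlapped. Sparc went from -2.75, -3.59, -3.12 and -3.20 to the values at 95 h given above, without overlap. Without the 3 arrays of 84 h Lama4 was the single call, where 5.45% of features were called. In Flk1- cells 3 rose and 1 fell, where 1.64% of features were called, 1.06% as rises and 0.585% as falls, and 10 genes did not overlap, beside 9.98%. Col9a3, a chain of a collagen on cartilage fibrils, rose by 1.22 ± 0.23 (adjusted p = 0.00883), from -1.45, -1.42, -1.40 and -1.34 to 0.35, -0.18, -0.51 and -0.40. Lama2 fell from -1.78, -1.72, -1.95 and -2.11 to -2.53, -2.60, -2.70 and -2.60 (difference -0.72 ± 0.14, adjusted p = 0.011). Neither overlapped. Col6a1, a type VI collagen chain, rose by 0.50 ± 0.12, from -1.91, -1.93, -2.09 and -1.89 to -1.59, -1.31, -1.56 and -1.36. Nid1 rose by 1.05 ± 0.23 from -2.83, -2.45, -2.71 and -2.48. Neither of these overlapped. The call of Col6a1 was lost without any of 6 of the 8 arrays (adjusted p up to 0.131), under quantile normalization (adjusted p = 0.0916) and without centring (adjusted p = 0.0529). That of Nid1 was lost without any of 4 arrays (adjusted p up to 0.0870) and under quantile normalization (adjusted p = 0.0720).

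On the 4 arrays of Flk1- cells at 95 h, Nid1 and a few other genes, picked here because their values did so, were high on arrays 1 and 2. Its ratios were -0.71 and -1.17 on arrays 1 and 2 and -2.30 and -2.11 on arrays 3 and 4. Col4a1 was -0.14 and -0.08 against -1.44 and -1.92, Sparc -0.87 and -1.07 against -2.36 and -2.62, and Lama1, the alpha chain of the first laminin of the embryo, 2.11 and 1.79 against 0.82 and 1.02. Lamc1, the common gamma chain, was high on array 1 alone, at 1.75 against 0.16, 0.05 and -0.32. Other basement membrane genes did not divide these arrays in this way: Col18a1 was -0.89, -0.97, -0.27 and -0.60, Col4a5 was -0.87, -0.58, -0.60 and -1.05, and Lama5, as given above, was lowest on array 1. Of the 12 endoderm markers, Thbd, a marker of parietal endoderm, was picked in the same way, at -0.41 and -0.26 against -1.40 and -1.47. Foxa2, a marker of visceral and definitive endoderm, was instead lower on arrays 1 and 2, at 2.04 and 2.16 against 2.45 and 2.59, and Cubn was 0.91 on array 1 and between -1.64 and -0.89 on the others. Pth1r, a marker of parietal endoderm as well, was 0.90, -0.38, 0.04 and -0.68, and Dab2 was 0.43, -0.72, -0.05 and -0.10. The mean of the 12 endoderm markers was -0.02, -0.37, -0.38 and -0.44. These arrays and genes were chosen after their values were seen, so no test is given, and the part of endoderm cells was not tested. On the Flk1+ arrays of 95 h Col4a1 stayed between -1.90 and -1.69. At 95 h Col4a1 differed between the sorts by -0.89 ± 0.31 (adjusted p = 0.199). Array 4 held the lowest Flk1- ratio of both Col4a1 and Sparc at that time, so leaving it out must widen such differences. Without it the Col4a1 difference between the sorts was -1.23. The differences from 84 h to 95 h in Flk1- cells were then 1.13 for Col4a1 and 1.14 for Sparc. Calls gained in this way follow from the choice of array and are not counted.

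**Figure D5:**
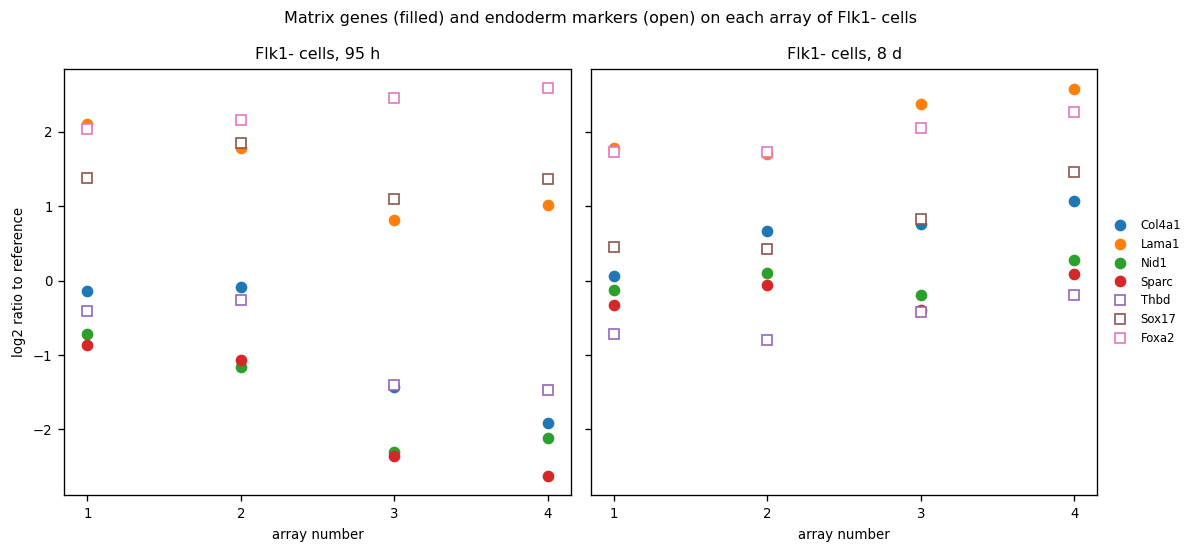
Log2 ratios (vertical axis) on the arrays 1 to 4 (horizontal axis) of Flk1- cells at 95 h and at 8 d, for 4 matrix genes (filled circles) and 3 endoderm markers (open squares). At 95 h Col4a1, Lama1, Nid1, Sparc and Thbd are high on arrays 1 and 2 and low on 3 and 4, and Foxa2 is lower on arrays 1 and 2.

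Over the 7 comparisons of 2 groups, 11 of the 56 genes were called in at least 1 comparison of sorts, 33 in at least 1 comparison of times, and 18 in none. Of all features these shares were 14.2%, 42.3% and 53.7%. The 18 included Col1a1, Col2a1, Hspg2, Lama1, Lamc1 and Itgb3bp.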

How the data were processed

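The log2 ratios of 20280 probes on 24 arrays are the values deposited by the authors. Sample RNA in Cy5 and whole-pup reference RNA in Cy3 were amplified, per the labels. The log base, the direction of the ratio, feature extraction, background correction and normalization are not given in the sources used here. The values were read as log2 of Cy5 over Cy3, a direction in which Kdr was higher in Flk1+ cells at each time. Gene names came from the platform annotation: 11813 probes had 1 gene, 559 several and 7908 none, and unnamed probes stayed in the test under their own identity.

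Each array was centred on its median, which was 0.046 to 0.1971 as deposited, probes of 1 gene were averaged, and 17440 features were fitted with limma 3.58.1 in R 4.3.3 (lmFit and eBayes), with 1 mean per group and no covariate (18 residual and 3.41 prior degrees of freedom). The fit was tested on simulated data with the same spread in every group. That test does not cover groups of unequal spread, as the arrays of 84 h and 8 d were. Genes and gene lists were chosen with earlier results of these data known. All 56 genes could be named, with every array printed for genes called between sorts and for the 4 largest rises and falls over time. Up to 4 called genes were named from each accompanying list. Sample numbers were taken to pair the sorts at 95 h and 8 d, where the deviations of same-numbered samples from their group means correlated at 0.107 to 0.417 and at 0.146 to 0.437. The block itself was fitted over all 3 times together, 84 h included. Only 4 arrays per group limit the precision. The alternatives tried were other array scalings, array weights, a filter on values near 0, another choice of probe, fewer arrays and the replicate block. Genome sequence beyond the RefSeq promoters was not used here.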

Additional observations from a re-analysis of the deposited data

Results flagged for a closer look

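Of 336 groups of 4 arrays (56 genes in 6 groups), 14 held an array whose gap to the nearest other array exceeded Dixon's 95% critical value for the group's range, and chance gives about 1 in 20. At 84 h in Flk1- cells these were Col14a1 on array 2 (-2.40), Lama4 on array 2 (-1.89) and Nid2 on array 4 (-0.40). At 95 h they were Itga9 on array 1 (0.12) and Itgb4 on array 2 (-0.78) of Flk1+ cells, and Col4a4 on array 2 (-0.64), Lama4 on array 1 (-1.96) and Itga11 on array 3 (-1.54) of Flk1- cells. At 8 d they were Col4a2 on array 1 (-0.42), Lama4 on array 2 (-0.32), Itga6 on array 3 (-0.70) and Col6a2 on array 4 (-1.29) of Flk1+ cells, and Lama2 on array 2 (-1.54) and Col6a2 on array 4 (-1.59) of Flk1- cells.

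For 2 genes the change of the sort difference from 95 h to 8 d was called in limma's fit, Col18a1 by 1.50 (adjusted p = 0.0385) and Fn1 by -0.95 (adjusted p = 0.0380). Each call was lost on leaving out any of 12 of the 16 arrays. Both were also lost with the probe of largest SD (adjusted p = 0.0669 for Col18a1 and 0.58 for Fn1). Taken singly, 1 of the 2 Col18a1 probes was called for this change, and 0 of the 3 Fn1 probes were.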

How the results depend on the processing

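Counts below are of the 56 genes called. Leaving out 1 array gave 5 to 15 at 84 h (10 with all arrays), 3 to 6 at 95 h (4) and 0 to 1 at 8 d (1) between the sorts. From 84 h to 95 h it gave 2 to 11 in Flk1+ (7) and 2 to 6 in Flk1- cells (4), and from 95 h to 8 d 19 to 21 in Flk1+ (22) and 20 to 23 in Flk1- cells (21). The change of the sort difference gave 0 to 0 from 84 h to 95 h (0) and 0 to 2 from 95 h to 8 d (2). The 84 h count fell to 5 without Flk1+ array 4 or Flk1- array 1 or 3 and to 6 without Flk1- array 2. At 8 d it was 0 without Flk1+ array 1 or Flk1- array 4. In Flk1+ cells from 84 h to 95 h it was 11 without array 1 or 3 of 84 h, 2 without array 4 of 84 h and 3 without array 2 of 95 h. In Flk1- cells it was 2 without array 1, 2 or 3 of 84 h or array 2 of 95 h. Fits on only the arrays compared called 4 at 84 h, 2 at 95 h, 9 at 8 d, 0 in Flk1+ and 2 in Flk1- cells from 84 h to 95 h, where 1.99%, 0.774%, 5.46%, 0% and 0.401% of all features were called. Quantile normalization called 3 at 8 d, 4 in Flk1+ and 2 in Flk1- cells from 84 h to 95 h, where 1.25%, 9.32% and 2.10% of features were called, and array weights 17, 1 and 9, where 13.4%, 4.61% and 12.4% were. Without the 3 arrays of 84 h that lay apart the counts were 6 at 84 h, 2 at 8 d and 1 in Flk1+ cells from 84 h to 95 h. The shares of features called were 6.74%, 0.986% and 5.45%. With the probe of largest SD they were 13 in Flk1+ cells from 84 h to 95 h and 0 for the change from 95 h to 8 d. Of all features 20.5% and 0.562% were called there. That choice of probe turned 3 signs from 84 h to 95 h: Col1a2 at 0.90 and Fn1 at 0.99 in Flk1+ cells, and Col1a2 at 0.75 in Flk1- cells. The replicate block called 14 at 84 h and 2 at 8 d, where 25.1% and 0.797% of features were called. At 84 h 3 of 4 same-numbered pairs correlated above 0.1 (-0.127 to 0.526), and its blocked calls were not used above. The block paired the numbers at all 3 times in 1 fit. Blocked values at 95 h and 8 d therefore rest on a spread that includes the pairs of 84 h. No same-numbered samples of different times correlated above 0.1. Of the called genes, 16 of 22 in Flk1+ and 18 of 21 in Flk1- cells kept their call from 95 h to 8 d under each alternative. The cause of the other changes was not tested.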
